A study of Mus musculus with 4 samples.

Results

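The subject is the genes that encode the proteins of the cytoplasmic ribosome, as seen by CUT&Tag. In this assay a transposase, held at chromatin by an antibody, cuts and tags the DNA around it for sequencing. The cells were primary haematopoietic stem cells from bone marrow. The mice were wild type for Ppp2ca, and their age, sex and strain are not given in the sources used here. An antibody to PPP2CA, the catalytic subunit of the phosphatase PP2A, was used in 2 libraries and control immunoglobulin G (IgG) in 2, to find the genomic places that PPP2CA occupies. Whether libraries of 1 kind came from separate animals is not stated, so differences between them may be technical. The p-values given below set the PPP2CA libraries against sampling noise of fragments only and measure no spread between animals. Members were the protein-coding genes whose symbol is Rpl or Rps and a number, with at most 1 further letter (a, x, y or l), plus Rpsa, Rplp0, Rplp1 and Rplp2. The kinase genes named Rps6k were not taken. This gave 81 genes of 21775 protein-coding genes, on 19 chromosomes, 50 of the large and 31 of the small ribosomal subunit.

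A ribosome is built in the nucleolus from ribosomal RNAs and a set of ribosomal proteins, and the genes of these proteins are expressed together at high level in nearly all growing cells. Their mRNAs begin with a C followed by a run of pyrimidines, the 5′ terminal oligopyrimidine (TOP) tract, through which mTOR signalling sets their translation. Haematopoietic stem cells are known to keep protein synthesis low, and in humans loss of 1 copy of certain ribosomal protein genes causes Diamond-Blackfan anaemia, a failure of red cell production. PP2A is a serine/threonine phosphatase that acts on many proteins, and it has no DNA-binding domain of its own.

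The PPP2CA libraries (PPP2CA 1 and PPP2CA 2) held 16811 and 17686 called peaks, and the IgG libraries 561 and 310. A fragment is 1 sequenced piece of DNA, and the number of fragments at the highest point of a peak, its summit, was recovered from the authors' values. The median summit had 18 fragments in both PPP2CA lists and 4 in both IgG lists. The lowest local background of a PPP2CA list was 9.34 to 9.61 times that of an IgG list. The kinds of library were therefore not of equal depth, and an absent IgG peak does not show that IgG signal was absent. A gene is called marked here when a merged region, called in both PPP2CA libraries and free of any IgG peak, lay within 1 kb of either boundary of its entry. Peaks measure tagged DNA and not expression, so the cell label could not be checked by expression. Of 8 stem cell marker genes, 2 were marked (25%), Kit and Mecom, against 39.5% of all protein-coding genes. Cd3d was marked of 3 T cell genes, and none of 3 B cell, 3 erythroid and 3 granulocyte genes was. So few genes cannot check the cell label either.

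The stretches that follow show where the annotated starts lie in the genes on which the results turn. Each gives 60 bases before the first transcribed base and the first 20 after it, 5′ to 3′, from the RefSeq promoter table of GRCm38.p6. Capitals mark a TOP-like run, a C and at least 4 further C or T, that begins within 10 bases of the annotated start. The first 5 are the marked members of the table with the best-ranked boundary regions: Rpl10 at chrX:74270756-74270835 (plus strand), Rplp0 at chr5:115559407-115559486 (plus strand), Rps19 at chr7:24884532-24884611 (plus strand), Rps23 at chr13:90923062-90923141 (plus strand) and Rps25 at chr9:44407654-44407733 (plus strand).
Rpl10: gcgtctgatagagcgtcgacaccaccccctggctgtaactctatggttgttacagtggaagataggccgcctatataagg
Rplp0: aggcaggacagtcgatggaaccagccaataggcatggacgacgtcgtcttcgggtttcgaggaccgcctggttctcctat
Rps19: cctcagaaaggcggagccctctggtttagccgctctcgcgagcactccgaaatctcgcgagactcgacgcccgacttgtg
Rps23: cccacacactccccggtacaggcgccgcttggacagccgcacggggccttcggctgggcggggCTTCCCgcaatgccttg
Rps25: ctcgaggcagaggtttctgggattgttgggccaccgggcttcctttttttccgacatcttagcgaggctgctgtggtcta
The next 3 are members with a TOP-like run near the start, of which Rpl35 has the lowest-ranked region and Rps2 a start well inside its gene entry: Rpl35 at chr2:39005112-39005191 (minus strand), Rps27 at chr3:90213629-90213708 (minus strand) and Rps2 at chr17:24720003-24720082 (plus strand).
Rpl35: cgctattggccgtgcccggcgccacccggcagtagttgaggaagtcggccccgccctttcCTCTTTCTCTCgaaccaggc
Rps27: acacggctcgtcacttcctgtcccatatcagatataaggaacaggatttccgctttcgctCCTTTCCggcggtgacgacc
Rps2: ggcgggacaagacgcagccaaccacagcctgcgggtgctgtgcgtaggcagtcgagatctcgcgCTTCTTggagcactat
The last 4 are the members with no region at any listed start: Rpl3l at chr17:24727766-24727845 (plus strand), Rpl10l at chr12:66284382-66284461 (minus strand), Rpl32l at chr10:20208379-20208458 (plus strand) and Rpl39l at chr16:10170168-10170247 (plus strand).
Rpl3l: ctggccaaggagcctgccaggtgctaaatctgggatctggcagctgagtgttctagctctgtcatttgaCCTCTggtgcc
Rpl10l: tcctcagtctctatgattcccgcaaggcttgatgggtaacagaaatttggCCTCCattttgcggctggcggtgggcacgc
Rpl32l: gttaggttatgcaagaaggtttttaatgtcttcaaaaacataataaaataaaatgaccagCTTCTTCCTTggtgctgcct
Rpl39l: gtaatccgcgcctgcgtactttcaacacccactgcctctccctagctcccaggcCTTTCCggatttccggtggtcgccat

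Nearly all ribosomal protein genes had a PPP2CA region beside them. A PPP2CA 1 peak lay within 1 kb of a boundary at 74 of the 81 members, against 43.8% of all protein-coding genes, and a PPP2CA 2 peak at 75, against 44.4%. Marked in both libraries and without an IgG peak were 74 members (91.4%, 95% exact interval 83.0 to 96.5), against 39.5% of all protein-coding genes. Regions with an IgG peak, if kept, left the members at 74, against 40.2% of all protein-coding genes. No member had a peak of either IgG library, where 0.606% of protein-coding genes had an IgG 1 peak and 0.22% an IgG 2 peak. A count of 0 in 81 genes allows a share of up to 3.70% by a floor of 3 counts, or 4.45% as the exact 95% upper limit, so the members cannot be told apart from the genome in IgG. Scaled down by the ratio of the backgrounds, 9.47, the summits of the marked members would hold 1.11 to 20.2 fragments at IgG depth, with a median of 4.96. In 65 of the 74 members that value was at or above 3, the lowest summit called in either IgG list. Peaks are called against their local background, which this comparison leaves out. It therefore does not show whether an IgG peak could have been called at these members.

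**Figure D1:**
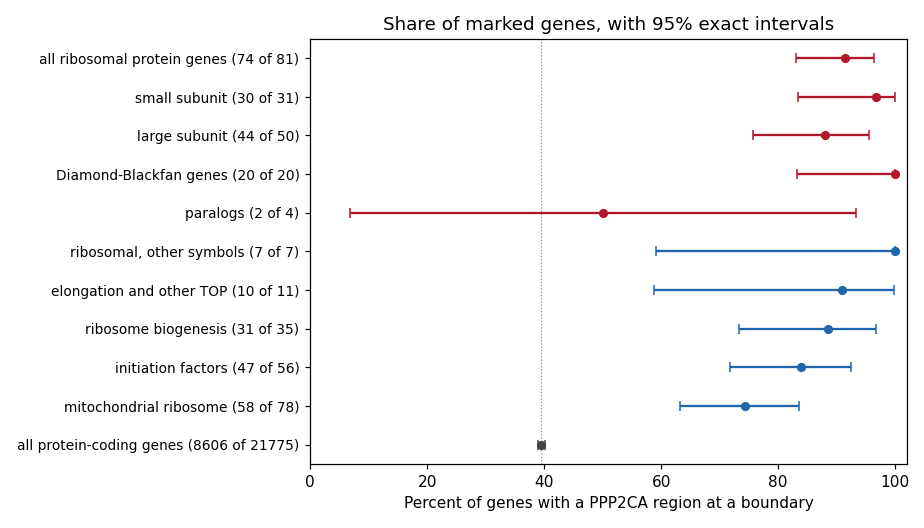
Percent of genes with a PPP2CA region within 1 kb of a boundary, for ribosomal protein genes and their groups (red), related gene lists (blue) and all protein-coding genes (dark grey, dotted line), with exact 95% intervals that cover counting error only. The ribosomal protein genes stand at 91.4%, the mitochondrial ribosomal protein genes at 74.4% and all protein-coding genes at 39.5%.

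The 7 members that were not marked were of 2 kinds. Rps2, Rpl19, Rpl22 and Rpl17, members found in ribosomes of most tissues, each held a region of both PPP2CA libraries inside the gene entry, more than 1 kb from its boundaries. Rps2, a small subunit protein near the mRNA entry channel, had 142 fragments in PPP2CA 1 and 171 in PPP2CA 2 (fold 6.89 and 7.96, the summit over its local background as the authors' lists give it), more than any marked member but Rpl10 in each library. Its region on chromosome 17 from 24719440 to 24720543 covered the listed start, with summits at -81 and -117 bp from it. Rpl19, of the large subunit, had 58 and 74 fragments (fold 8.50 and 8.75), with summits at 55 and -25 bp from a listed start, and also a boundary peak of PPP2CA 2 alone. Rpl22, whose loss in mice blocks a lineage of developing T cells, had 28 and 22 fragments (fold 7.43 and 6.86), at 175 and 328 bp after a listed start. Rpl17, of the large subunit, is not in the promoter table and had 38 and 45 fragments (fold 7.83 and 6.64). In these 4 genes no region of both PPP2CA libraries lay at the outer boundary of the entry.

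Rpl10l, Rpl32l and Rpl39l held no PPP2CA peak within 1 kb of a boundary in either library, nor a region of both libraries inside the gene. Rpl10l and Rpl39l are paralogs used mainly in the testis. Rpl3l, the paralog of Rpl3 in striated muscle, counted as marked only through a region at its end, shared with Msrb1, with 32 and 36 fragments. Its summits lay 3823 and 3847 bp from the nearest listed start. The paralog Rps27l, which p53 induces, was marked near its start with 37 and 39 fragments (fold 7.32 and 7.75). With regions anywhere in the gene, 78 of the 81 members were marked, against 45.3% of all protein-coding genes, and the 3 left out were Rpl10l, Rpl32l and Rpl39l. All 77 members other than Rpl3l and these 3 then had a region of both PPP2CA libraries, a split made after their values were seen. Of the 5 paralogs listed, Rps4l was not analysed here.

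The promoter table gave starts for 61 members and strand for 55 marked ones. The other 20 members were placed by boundary only. Within 1 kb of a listed start, 57 of the 61 were marked, against 41.5% of the 17491 protein-coding genes in the table. The 4 without were Rpl3l, Rpl10l, Rpl32l and Rpl39l.

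The regions sat at gene starts. Of the 55 marked members with a strand, 44 (80.0%, 95% exact interval 67.0 to 89.6) had a region at the start side only, against 89.1% of the 7068 marked genes with a strand. A further 10 had regions at both sides, against 7.23%, and Rpl3l was the single member with a region at the end side only, against 3.66%. In 4 of the 10, the short genes Rps21, Rps27, Rpl41 and Rps28, 1 region reached both boundaries. In the other 6, Rps19, Rpl13a, Rps15a, Rpl4, Rpl23 and Rps18, a second region lay at the end. The end regions of Rps15a (13 and 20 fragments), Rps19 (15 and 12) and Rpl23 (15 and 15) were low beside those at their starts. The Rpl4 end region, shared with Snapc5, was as high as the start region, with 66 and 72 fragments against 54 and 77.

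Strongest summits lay close to the first transcribed base. Relative to the nearest listed start, the median was 45 bp into the gene in PPP2CA 1 and 33 bp in PPP2CA 2 (quartiles -96.5 to 150.5 and -61.5 to 179), against 11 and 16 bp for all marked genes. Within 250 bp of a start were 42 and 43 of the 55 members (76.4% and 78.2%), against 68.4% of all marked genes in each library. Rpl4, Rpl41, Rpl3l and Rpl18 had their strongest summit more than 1 kb away in both libraries. In Rpl41, which encodes the smallest ribosomal protein, that summit lay 1252 and 1235 bp downstream in a region shared with Zc3h10. In Rpl18 it lay near the outer boundary, at -2838 and -2022 bp from a listed start, while another region of 41 and 58 fragments covered that start.

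**Figure D2:**
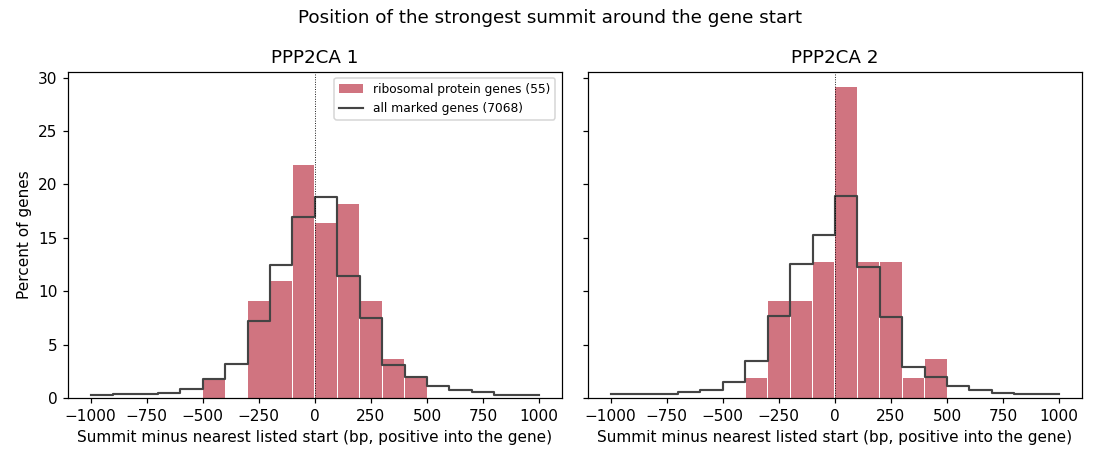
Distance in bp from the nearest listed start to the strongest summit, in bins of 100 bp, as percent of genes, for 55 ribosomal protein genes (red bars) and 7068 marked genes with a strand (line). In each PPP2CA library the bars gather within 250 bp of the start, where 76.4% and 78.2% of the members lie, and summits over 1 kb away are not drawn.

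Among the marked members the summits differed by more than 10-fold in height. Rpl10, an X-linked protein that joins the large subunit late in its assembly, was highest with 182 and 200 fragments in PPP2CA 1 and PPP2CA 2 (fold 12.1 and 11.7). Its region, on the X chromosome from 74269973 to 74271370, had place 117 of 12438 regions when regions were ordered by the worse of their ranks of −log10 q in the PPP2CA libraries. Rplp0, the base of the stalk that recruits translation factors, had 135 and 136 fragments (fold 10.4 and 10.4). Rps19, the gene most often mutated in Diamond-Blackfan anaemia of humans, had 97 and 114 fragments (fold 10.9 and 10.3). These 3 stood above the other marked members by the worse of their ranks. In PPP2CA 1 alone, Rps25 and Rps23 ranked above Rps19 (707 and 725 against 766).

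Next came Rps23, a protein of the decoding centre, with 81 and 85 fragments, and it had the highest fold of all members, 15.1 and 14.2. Rps25, used in initiation at internal entry sites, had 96 and 85 fragments (fold 11.9 and 9.83) in a region shared with Trappc4. Rpl3, which reaches toward the peptidyl transferase centre, had 95 and 95 fragments (fold 8.53 and 8.46). Rpl38, needed in mice for translation of Hox mRNAs, had 64 and 84 fragments. Rpl4, part of the peptide exit tunnel, had 66 and 72 fragments in its end region, shared with Snapc5. Rps27a, made as a fusion with ubiquitin, had 59 and 61 in a region shared with Clhc1. Rps29 had 74 and 67 fragments, Rps15a 62 and 71, and Rps14, deleted in the 5q minus syndrome of humans, 83 and 72. These 12 were the best ranked, and each exceeded the median of all marked genes in both PPP2CA libraries.

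At the other end, Rpl35 ranked last of the marked members, with 26 and 20 fragments and a fold of only 3.37 and 2.74. Rps4x, the X-linked small subunit gene, had the fewest fragments, 8 and 13, over a local background of 0.911 in PPP2CA 1 (fold 4.71 and 6.46). Rpl6 had 14 and 17 fragments, Rpl24 17 and 18, Rpl36 40 and 29, and Rpl23a 25 and 35. A summit under 20 fragments in at least 1 library was seen in 6 marked members. Rps4x and Rpl6 thus had few fragments, while Rpl36 and Rpl23a had more fragments over a higher local background (7.61 and 7.89, and 6.23 and 7.49). The fold was 4.76 and 3.37 in Rpl36 and 3.60 and 4.24 in Rpl23a.

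**Figure D3:**
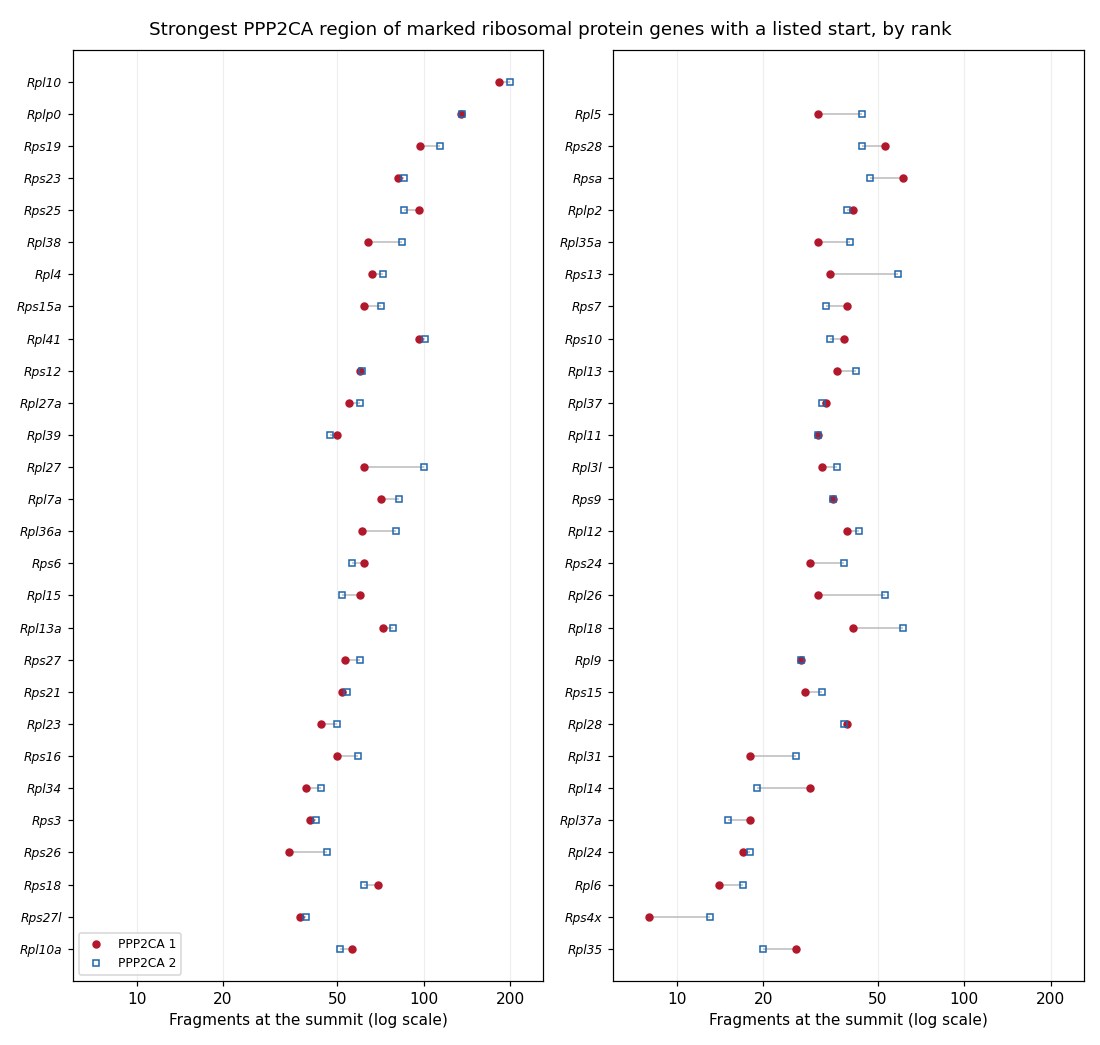
Fragments at the summit (log scale) of the strongest PPP2CA region of the 55 marked ribosomal protein genes with a listed start, in PPP2CA 1 (filled circles) and PPP2CA 2 (open squares), best rank at the top left and lowest at the bottom right. Values run from 182 and 200 at Rpl10 down to 8 and 13 at Rps4x, and the libraries lie furthest apart at Rps13, with 34 and 59 fragments.

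As a group the members were higher than other marked genes in fragments but not in fold. The median summit held 41 and 47 fragments in PPP2CA 1 and PPP2CA 2, against 29 and 32 for all marked genes, and 57 of the 74 members lay above both of those medians. The median local background was also higher, at 5.19 and 6.08 fragments against 3.31 and 3.75. The median fold was 7.09 and 6.73 against 7.08 and 7.03. Rpl41 showed this, with 96 and 101 fragments but a fold of 5.71 and 5.19, though its region is shared with Zc3h10 and cannot be assigned to 1 gene. Region widths were also alike, with a median of 1048.5 bp against 1026 bp. By rank of −log10 q, 58 members (78.4%) lay in the best 40% of all 12438 regions, against 53.9% of all marked genes. The median place was 3147 against 4547. Genes are not independent replicates, and these are descriptions with no test.

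**Figure D4:**
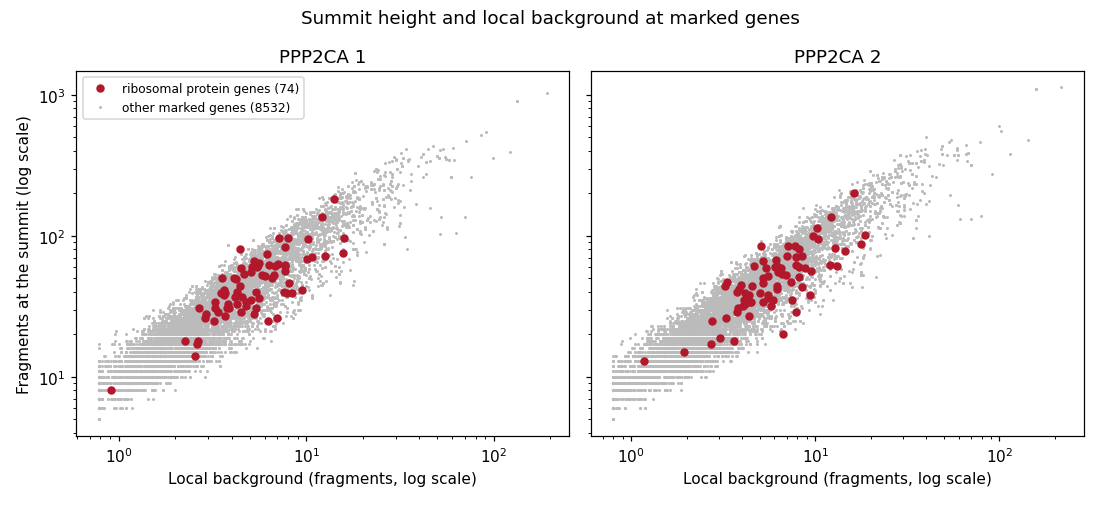
Fragments at the summit against local background, both on log scales, for 74 marked ribosomal protein genes (red) and 8532 other marked genes (grey) in each PPP2CA library. The red points lie inside the grey band, above its dense lower end, with medians of 41 and 47 fragments over backgrounds of 5.19 and 6.08.

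Both subunits were covered, against the 39.5% of all protein-coding genes given above. Of the small subunit genes 30 of 31 were marked (96.8%, 83.3 to 99.9), all but Rps2, and of the large subunit genes 44 of 50 (88.0%, 75.7 to 95.5). The median summit of marked genes held 51 and 50.5 fragments in the small subunit and 40 and 45.5 in the large. All 3 stalk genes were marked: Rplp1 had 63 and 62 fragments, and Rplp2 41 and 39, below Rplp0. Rpl5 and Rpl11, which bind 5S ribosomal RNA and restrain the p53 inhibitor MDM2, had 31 and 44 and 31 and 31 fragments. All 20 genes listed as mutated in Diamond-Blackfan anaemia of humans were marked, a share near the 91.4% of all members, with 18 to 97 fragments (median 36) in PPP2CA 1 and 20 to 114 (median 44) in PPP2CA 2. Their 3 best ranked were Rps19, Rps29 and Rps15a, with the values given above.

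The 4 X-linked members, Rpl10, Rpl39, Rpl36a and Rps4x, were all marked, against 22.6% of the 963 X-linked protein-coding genes. Rpl39 had 50 and 47 fragments and Rpl36a 61 and 80. A region shared with the boundary of another protein-coding gene stood for 19 of the 74 members (25.7%), against 32.8% of all marked genes. Among the shared ones were Rps28 with Ndufa7, Rpl15 with Nkiras1, Rpl7a with Med22 and Rps18 with Vps52, and such a region cannot be assigned to 1 of the genes. The other 55 members had a strongest region of their own.

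No summit tested at a member was called different between the PPP2CA libraries. At 47 summits of 46 members that lay within 100 bp of each other in both libraries, an exact two-sided binomial test with Benjamini-Hochberg adjustment over all 6930 shared summits called 0. Without adjustment 1 of the 47 had p under 0.05, Rps13, with 34 and 59 fragments (exact binomial p = 0.0128, adjusted p = 1), against 3.59% of all shared summits. Over all shared summits 0.0433% were called, 3 of 6930. The dispersion of the fragment numbers, chi-square over the number of summits, was 0.621 at members and 0.888 over all. Both lie below 1, but only places called in both libraries close together entered. Such a choice can favour places where the libraries are alike, so these values do not show how far the libraries differ. Members such as Rpl27, with 62 and 100 fragments, and Rpl26, with 31 and 53, were not tested. With summits up to 200 bp apart, 0 of 68 were called and 2 had an unadjusted p under 0.05. The PPP2CA libraries are treated as 1 sample, with values per library and no SD, and the test compares libraries, not conditions.

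Many ribosomal protein genes host small nucleolar RNAs, guides of ribosomal RNA modification, in their introns. Such an entry lay inside 29 members, of which 27 were marked, and 47 of the 52 members without one were marked. Of the 58 hosted entries, 8 (13.8%) lay under a PPP2CA region, against 1.80% of all 1330 entries, among them Snord15a in Rps3, Snord43 in Rpl3 and Snora78 in Rps2. The 8 lay in 8 different hosts. Since 27 of the 29 hosts were marked, this share says nothing of the small RNAs apart from their hosts. Entries inside other marked genes were not compared. Ribosomal protein genes also have many processed pseudogenes, copies made from their mRNA. Of 318 such entries 1 (0.314%, 95% exact interval 0.00796 to 1.74) had a region within 1 kb, Rpl30-ps5 beside Ctsz, against 1.28% of all pseudogene entries. The number was 0 with a window of 500 bp, 9 with 2 kb and 2 when either PPP2CA library was left out.

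Some motifs were found more often at member starts than over all promoters, given as shares with no test. The 61 members had 73 promoter entries of 300 bases, 250 before the start and 50 after. The letters CCGGAAG, as bound by ETS factors such as GABP, were found in 35.6% of member entries, against 11.6% of all 21262 entries and 21.3% of the 8578 marked ones. The letters CTTTCC were in 49.3% against 25.9% of all and 26.1% of marked entries, and AAGATGGC, as bound by YY1, in 9.59% against 3.05% and 5.21%. TATAAA was in 9.59% of member entries, against 12.6% of all and 5.62% of marked ones. GGGCGG was in 57.5%, against 46.2% of all and 70.5% of marked entries. CACGTG was in 8 of the 73, against 7.84% of all and 10.8% of marked entries. Set against marked entries, members thus had GGGCGG less often, TATAAA more often and CACGTG about as often. In the 100 bases before the start and 50 after it, CACGTG turned to 2.74% of member entries against 4.78% of all, and TATAAA to 6.85% against 6.73%. Each was searched on both strands, and CTTTCC can be part of a TOP-like run.

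A TOP-like run on the coding strand near the start, as capitals show in Rpl35, Rps27, Rps23 and Rps2, was in 56.2% of member entries, against 31.1% of all entries and 31.3% of marked ones. TCT within 10 bases of the start was in 42.5% against 26.0% of all. At least 1 entry with a TOP-like run was listed for 39 of the 61 members. The unmarked Rpl10l, Rpl32l and Rpl39l have such a run too, while Rpl10 and Rplp0, the best-ranked members, have none at the listed start. Annotated starts can lie some bases off the true ones, and no match says only that the letters are not in that window. Among non-member entries, 40.3% of those with a TOP-like run were marked and 40.1% of those without. For CCGGAAG the shares were 74.0% and 35.8%, and for GGGCGG 61.4% and 21.9%.

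Marked promoters were rich in CG dinucleotides, and most member promoters were too. The median entry held 21 CG in members, 13 in all entries and 23 in marked entries. With 24 or more CG, 26 of 26 member entries were marked, against 72.2% of 5702 other entries. With 16 to 23 CG, 29 of 30 were marked, all but Rpl39l, against 64.5% of 3760. With 8 to 15 CG, 12 of 14 were marked, against 1420 of 3546 others, the exceptions being Rpl10l and the outer start of Rpl22. With 7 or fewer CG none of 3 entries was marked, those of Rpl32l and Rpl3l, against 6.67% of 8181. These bins were set after the data were seen, and the part of CG content in the share of marked members was not tested.

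Other genes of the ribosome and of translation were marked at shares of 74.4% to 100%. All 7 ribosomal protein genes with other symbols were marked, led by Rpl36al (79 and 113 fragments), Rpl22l1 (51 and 54) and Fau (66 and 70), a ubiquitin-like fusion. Of ribosome biogenesis genes 31 of 35 were marked (88.6%, 73.3 to 96.8), all but Nop10, Mdn1, Mybbp1a and Ubtf. The best ranked were the nucleolin gene Ncl (233 and 211 fragments), Gnl3 (133 and 136) and the fibrillarin gene Fbl (113 and 96). Elongation, termination and other TOP mRNA genes had 10 of 11, all but Eif5a, led by Tpt1 (285 and 298 fragments), Pabpc1 (171 and 170) and the elongation factor gene Eef1a1 (150 and 179). These 3 exceeded Rps19 in fragments, and Tpt1 exceeded every member, while an IgG 1 peak lay at 3 of the 11 genes. All 11, Eif5a too, had a peak of each PPP2CA library within 1 kb of a boundary. With only peaks of a −log10 q of at least 5, IgG peaks included, 11 of 11 were marked. Eif5a is therefore no gene without PPP2CA peaks.

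Initiation factor genes, here all symbols of Eif and a number, had 47 of 56 (83.9%, 71.7 to 92.4). They were led by Eif1 (385 and 502 fragments), Eif4a1 (381 and 433) and Eif4g2 (241 and 269). The symbol rule also takes in Eif2ak2 and Eif4ebp3, which are not initiation factors, and Eif5a, which is in the elongation list too. Mitochondrial ribosomal protein genes, whose products form the separate ribosome of mitochondria, had 58 of 78 (74.4%, 63.2 to 83.6), led by Mrps18b (355 and 338 fragments), Mrps7 (106 and 126) and Mrps14 (65 and 66). Their median summit held 28 and 27.5 fragments, below the 41 and 47 of the cytoplasmic members, over backgrounds of 2.57 and 3.09. Their median fold, 7.03 and 6.80, was close to the 7.09 and 6.73 of the cytoplasmic members. With at least 20 fragments the mitochondrial genes had 35 of 78 marked and the cytoplasmic members 68 of 81, against 26.5% of all protein-coding genes. At that limit ribosome biogenesis genes fell to 21 of 35 and initiation factor genes to 36 of 56. Elongation, termination and other TOP mRNA genes had 9 of 11, and ribosomal protein genes with other symbols 7 of 7. No test was made between these lists.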

How the data were processed

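Of 4 CUT&Tag libraries, 2 used an antibody to PPP2CA and 2 used IgG, grouped by sample title. The authors deposited 1 narrowPeak list per library, each with a fold (the ratio of the summit to its local background), a −log10 p, a −log10 q, a score equal to 10 times the −log10 q within a difference of 1, and the summit position. Per the submitters' processing notes, the builds were GRCm38 and mm10 and the tools Trimmomatic, BWA, MACS2, HOMER, ChIPseeker and deepTools. Their settings, and any use of a control, are not given in the sources used here. Values of peaks are the authors' own for that list, and served to describe, rank or filter peaks within it.

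Summit fragments n and local background b were recovered from the deposited fold, (n + 1) / (b + 1), and p, a Poisson tail above n. This gave whole numbers for 100% of peaks with a relative error of at most 2e-05. Library totals of reads were not used here. PPP2CA peaks that overlapped by at least 1 bp were merged, and regions of both libraries without an IgG peak were kept (12438). Genes came from the RefSeq table of GRCm38.p6, without 121 protein-coding entries on no nuclear chromosome or below 3 Mb, where chromosomes other than Y are unassembled. Strand and starts came from its promoter table, by gene identifier. Shares have 95% exact (Clopper-Pearson) intervals. They cover counting error only, and genes are not independent replicates. Fragments may include PCR copies, so their numbers can overstate the molecules. With 2 libraries a group, an exact permutation test over samples could not pass 0.05, so PPP2CA and IgG were not tested against each other. Python 3.11.15, scipy 1.17.1 and statsmodels 0.14.6 were used, and the computations were tested on simulated data.

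Members and lists were chosen with earlier results of these data known. Named members were the 12 best and 6 lowest ranked, all unmarked ones, the stalk, MDM2-binding and paralog groups, and the 3 best of each list. Others were named after their values were seen, and some genes are not reported here by name.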

Additional observations from a re-analysis of the deposited data

How the results depend on the processing

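The count of marked members stayed between 68 and 77 of 81 with a window of 500 bp or 2 kb, a −log10 q of at least 5, at least 20 fragments, summits within the window, or a reciprocal overlap of 50%. Over these settings the share of all protein-coding genes ran from 26.5% (at least 20 fragments) to 41.9% (2 kb). The count was 74 to 75 when a PPP2CA library was left out, against 43.2% to 43.8% of all genes. It was 74 when either IgG library was left out or regions with an IgG peak were kept, against 39.7% to 40.2%. It was 78 with whole genes, against 45.3%, and 81 of 88 under a wider symbol rule, against 39.5%. Listed starts gave 57 of 61, against 41.5% of genes in the promoter table. Regions of 1 gene only gave 55 of 81, against 27.1% of all genes. Both settings were added after the data were seen.

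Of 105 values recomputed, 95 stayed within the limits set, which were wide for counts, and 10 moved beyond them. Medians were set against the spread between libraries and motif shares against their exact interval. Within the limits were drops, with at least 20 fragments, to 21 of 35 ribosome biogenesis genes and 36 of 56 initiation factor genes. Beyond them, the mitochondrial list had 35 of 78 with 20 fragments. Marked pseudogenes numbered 0 with 500 bp or with summits within the window, 9 with 2 kb, and 2 when either PPP2CA library was left out. The median summit in PPP2CA 1 was 46 fragments with 2 kb, and the median fold in PPP2CA 2 was 7.06 without shared regions. Searching only 100 bases before the start and 50 after it gave 42.5% for GGGCGG (38.3% of all entries) and 2.74% for CACGTG (4.78% of all), so CACGTG turned from above to below the share of all entries. TATAAA turned the other way, to 6.85% against 6.73% of all. Fewer bases searched give fewer matches, and for the other changes the cause was not tested. Start sides cannot be told apart with whole genes, so that value was not run. No paired analysis was possible because no member has an IgG peak, so there is no IgG value to pair with a PPP2CA value. Low IgG depth limits every statement on IgG.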
